A study of Mus musculus with 8 samples.

Results

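The BCL-2 family was followed through regulatory T (Treg) cells of 4 groups as 10 genes, the pro-survival genes Bcl2, Bcl2l1 and Mcl1, the effectors Bax and Bak1, and the BH3-only genes Bcl2l11, Pmaip1, Bbc3, Bid and Bad. They were found by their symbols among 52459 listed genes, and all 10 were among the 15419 genes that had a mean of at least 10 normalized counts and were tested. Polyadenylated RNA came from C57BL/6 CD4+CD25hi cells that the labels describe as Foxp3+CD25+, taken from spleen and lymph nodes of several pooled female mice a sample, whose age was not given. All mice were heterozygous for Foxp3-YFPcre, in which the X-linked Foxp3 promoter drives YFP and Cre, and carried Stim1 fl/fl and Stim2 fl/fl alleles. Through X inactivation each female holds YFP-negative Treg cells, the WT group, and YFP-positive cells, labelled DKO and called Stim1/2-deficient here, so that WT cells carry the same floxed alleles and the genotypes also differ in Cre expression. STIM1 and STIM2 sense the calcium store of the endoplasmic reticulum and open the calcium channels of store-operated entry. Cells were left unstimulated or kept for 16 h with 1 µg/ml of plate-bound anti-CD3/CD28, with 2 libraries in each of the 4 groups, numbered 3 and 4 in unstimulated WT cells and 1 and 2 elsewhere.

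Proteins of this family set the threshold for the mitochondrial pathway of apoptosis. BCL-2, BCL-XL (encoded by Bcl2l1) and MCL-1 hold the effectors BAX and BAK in check, and the BH3-only proteins, among them BIM (Bcl2l11), NOXA (Pmaip1) and PUMA (Bbc3), bind the pro-survival proteins or activate the effectors, after which the outer mitochondrial membrane is permeabilized and caspases are activated. In Treg cells, IL-2 is known to sustain MCL-1, and BIM is known to limit their number. RNA levels do not report protein, cleavage of BID or phosphorylation of BAD.

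The libraries held 11851853 to 16306540 reads counted on genes, and 1 read was worth 0.759 to 1.48 normalized counts, which are read counts divided by 1 size factor per library. All 7 Treg markers were above 3 reads in every library. Their summed level was 40591 and 48769 in the unstimulated Stim1/2-deficient libraries, below the 69853 to 115438 of the other 6. Against resting WT cells, the lower sum lay mainly in Ctla4 (6338 and 17333 against 37403 and 35119), Ikzf2 (8398 and 9233 against 18953 and 19707), Foxp3 and Il2ra. Cd3e differed less, at 3042 and 3156 against 3424 and 3294. Cd4 overlapped, at 10363 and 7005 against 10760 and 8918. Whether the unstimulated Stim1/2-deficient libraries held fewer Treg cells was not tested. Summed markers of macrophages, 8 genes that were all above 3 reads in both these libraries, reached 9229.6 in Stim1/2-deficient replicate 1 and 1402 in replicate 2, against 93.7 to 264 elsewhere, where 3 to 6 of the 8 were above 3 reads. B cell markers without Ighm, which made up most of their sum, reached 2510.3 and 542 in these libraries against 268 and 267 in resting WT cells, and after stimulation 839 and 159 in WT and 1201 and 239.8 in Stim1/2-deficient cells. With Ighm the sums were 13602 and 3821 in the unstimulated Stim1/2-deficient libraries and 2387 to 6713 in the other 6. Summed markers of CD8 T and NK cells were 759 in unstimulated and 802 in stimulated Stim1/2-deficient replicate 1 and 202 to 370.2 elsewhere. Summed neutrophil markers, with Ly6g at no more than 1 read in any library, were 699 and 327 in resting Stim1/2-deficient cells, 132 and 91.6 in resting WT cells, and 620.2 and 130.02 against 405 and 220.2 after stimulation. Erythroid markers summed to 25.9 to 179.95. Stim1 RNA was not lower in the unstimulated libraries labelled Stim1/2-deficient (1538 and 1868) than in WT (1139 and 1377, log2 difference 0.44, limma adjusted p = 0.236). Stim2 RNA had 904 and 744 against 906 and 908 (limma adjusted p = 0.721). After stimulation neither gene was called between the genotypes (limma adjusted p = 0.807 and 0.827). Counts over a whole gene do not show whether a floxed exon is lost, so genotype is given as labelled. The paper reports that YFP-positive Treg cells of such females lacked store-operated calcium entry. All unstimulated libraries carry 1 lane number and all stimulated libraries another, so stimulation and lane cannot be told apart. The labels give no culture time for the unstimulated cells, so time in culture cannot be told apart from stimulation either.

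Promoter windows give the sequence context of Bcl2 and Bcl2l1, called between resting genotypes, and of Bcl2l11, called upon stimulation in both genotypes. The windows of Bax and Bak1, also called upon stimulation in both genotypes, are not printed. RefSeq windows of 300 bases on GRCm38.p6, from 250 before to 50 after an annotated start, were taken for 9 of the 10 members. These were 15 windows, none of them of Pmaip1. Windows on 1 chromosome were left out for the members but kept among all windows, so whether Pmaip1 has a window is not shown here. The windows shown lie at chr1:106714241-106714540 on the minus strand, chr2:152830668-152830967 on the minus strand (1 of 3 windows of this gene, the one with the most matches) and chr2:128125788-128126087 on the plus strand (1 of 2 windows). They are written 5′ to 3′ along the gene, and capitals mark matches on either strand to 1 of 4 motifs, the NFAT core GGAAA, the STAT element TTCNNNGAA, the FOXO element GTAAACA and the CRE core TGACG.
Bcl2: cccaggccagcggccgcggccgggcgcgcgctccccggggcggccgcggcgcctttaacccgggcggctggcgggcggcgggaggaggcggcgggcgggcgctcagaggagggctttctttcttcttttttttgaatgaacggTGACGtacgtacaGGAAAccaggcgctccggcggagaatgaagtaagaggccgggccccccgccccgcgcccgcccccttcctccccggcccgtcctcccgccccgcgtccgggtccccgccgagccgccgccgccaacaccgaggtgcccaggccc
Bcl2l1: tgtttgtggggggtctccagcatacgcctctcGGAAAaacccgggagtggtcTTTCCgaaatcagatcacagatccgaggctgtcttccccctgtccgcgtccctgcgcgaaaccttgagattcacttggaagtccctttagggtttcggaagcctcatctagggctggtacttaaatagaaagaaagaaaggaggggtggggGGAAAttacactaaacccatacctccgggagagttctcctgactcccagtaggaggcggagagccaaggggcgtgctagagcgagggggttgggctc
Bcl2l11: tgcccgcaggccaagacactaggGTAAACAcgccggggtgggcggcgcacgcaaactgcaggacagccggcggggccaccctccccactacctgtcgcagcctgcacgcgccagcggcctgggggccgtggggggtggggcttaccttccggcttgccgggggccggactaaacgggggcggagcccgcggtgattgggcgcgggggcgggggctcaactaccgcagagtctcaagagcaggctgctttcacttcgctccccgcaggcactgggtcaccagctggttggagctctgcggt
In the Bcl2 window, TGACG began 107 bases before the start and GGAAA 94 bases before it. The Bcl2l1 window had 3 NFAT cores and the Bcl2l11 window a FOXO element that began 227 bases before the start. The other window of Bcl2l11 had no match to any of the 4 motifs. NFAT cores were present in 11 of the 15 windows of members and in 61.3% of all 32851 windows of this length, CRE cores in 3 of 15 and 20.8%, FOXO elements in 2 of 15 and 3.65%, and STAT elements in 0 of 15 and 8.3%. The matches are letters in a window, and no binding was measured.

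Levels were compared between genes per kb of exon, taking all exons of a gene in GENCODE M1 together (plot of levels per exon length). Mcl1 stood first in every group, at 1353.5 ± 46.9 normalized counts per kb (SD, n = 2) in unstimulated WT cells, 1851.5 ± 37.6 in unstimulated Stim1/2-deficient cells, and 1235 ± 39.3 and 1786 ± 309 after stimulation. Bcl2 came second in 3 groups, and in unstimulated WT cells Pmaip1 (627 ± 2.98) stood between Mcl1 and Bcl2 (459 ± 8.96). Pmaip1 held the fourth place in unstimulated Stim1/2-deficient cells (221 ± 37.7) and the seventh and eighth after stimulation. The last 2 places went to Bbc3 and Bad in all 4 groups, all at or below 41.3 normalized counts per kb on average. Neighbours whose libraries overlapped were Bax with Bak1, Bak1 with Bid and Bbc3 with Bad in unstimulated WT cells, and Bax, Bcl2l1, Bid and Bak1 in a row and Bbc3 with Bad in unstimulated Stim1/2-deficient cells. After stimulation these were Bax with Bcl2l1, Bid with Pmaip1 and Pmaip1 with Bcl2l11 in WT cells, and Bax with Bcl2l11 and Pmaip1 with Bbc3 in Stim1/2-deficient cells. The annotation behind the deposited counts is not given in the sources used here. Isoforms of different length would shift a gene on this scale, and alike in all groups only if isoform use is the same in them, which was not examined.

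**Figure D1:**
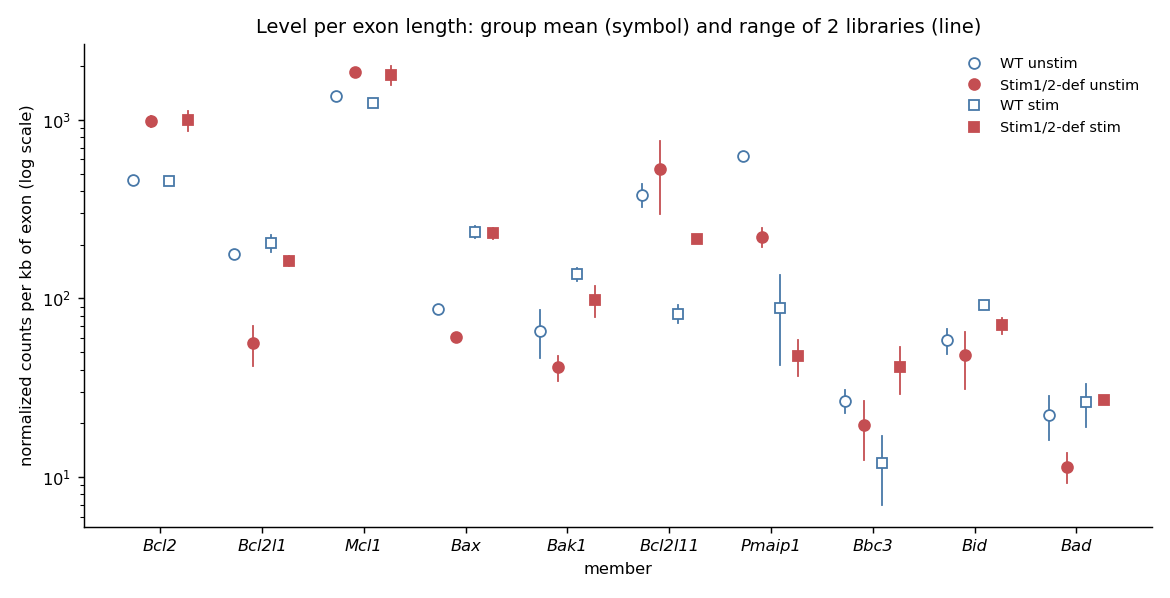
Level of each of the 10 members in normalized counts per kb of exon (log axis), as the mean of 2 libraries (symbol) and their range (line), for WT (blue, open) and Stim1/2-deficient (red, filled) cells, unstimulated (circles) or stimulated (squares). Mcl1 is highest in every group, and Pmaip1 spans 627 in unstimulated WT cells to 47.8 in stimulated Stim1/2-deficient cells.

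The first comparison asks how loss of the STIM proteins alters these genes in resting Treg cells. Bcl2 RNA was higher and Bcl2l1 RNA lower in Stim1/2-deficient than in WT cells, while none of the other 8 members passed the test. Bcl2, whose product sequesters BH3-only proteins at the outer mitochondrial membrane, had 3345 and 3254 normalized counts in WT cells and 7569.7 and 6538 in Stim1/2-deficient cells. The groups did not overlap, and both Stim1/2-deficient libraries lay far above both WT libraries, 2.13-fold (log2 1.09, standard error 0.18, adjusted p = 0.0142 with limma). Bcl2l1, the gene of BCL-XL, had 851 and 833 normalized counts in WT cells but 197 and 333 in Stim1/2-deficient cells. It thus fell by 1.71 on the log2 scale (standard error 0.26, 3.28-fold lower, limma adjusted p = 0.0110), with both libraries below both WT libraries. The third pro-survival gene, Mcl1, had 4832 and 4601 normalized counts in WT cells and 6545 and 6359.9 in Stim1/2-deficient cells. These values did not overlap either, but the log2 fold change of 0.45 (95% confidence interval 0.07 to 0.84) missed the threshold (limma adjusted p = 0.162).

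**Figure D2:**
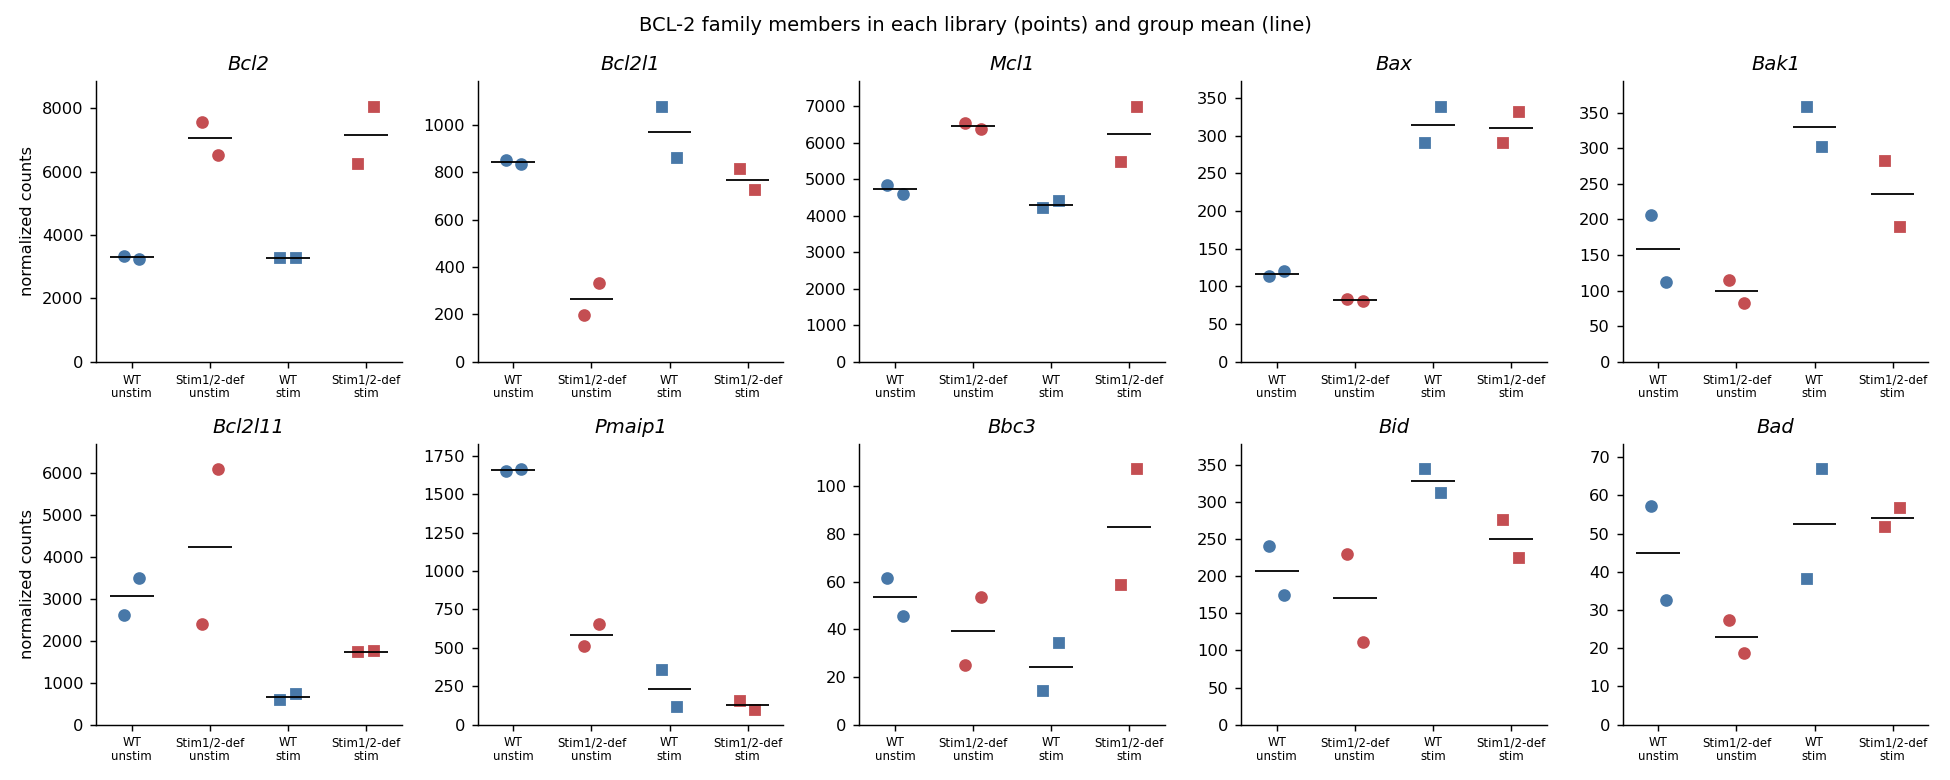
Normalized counts of the 10 members in each of 8 libraries (points) with the group mean (line), for WT (blue) and Stim1/2-deficient (red) cells, unstimulated (circles) or stimulated (squares), each axis starting at 0. Bcl2 lies between 3254 and 3345 in all 4 WT libraries and between 6237 and 8053 in all 4 Stim1/2-deficient libraries, whereas Bcl2l1 is low in unstimulated Stim1/2-deficient cells alone, at 197 and 333.

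Both calls rested on the WT libraries. Without WT replicate 3 or 4 the adjusted p was 0.189 and 0.0915 for Bcl2 and 0.177 and 0.0803 for Bcl2l1, at log2 fold changes of 1.11, 1.07, -1.70 and -1.73, and no member was called. Of the whole table, 0 genes were then called higher and 8 lower without replicate 3, and 7 and 16 without replicate 4. Without Stim1/2-deficient replicate 1, the library with the highest macrophage, B cell and neutrophil markers, the log2 fold changes were 0.99 (limma adjusted p = 0.0162) for Bcl2 and -1.34 (limma adjusted p = 0.0110) for Bcl2l1, and without replicate 2 they were 1.20 and -2.09. The part of these other cells in either value was not tested, and in RNA of bulk cells fewer cells of a type cannot be told apart from less RNA per cell. In a fit to the 4 unstimulated libraries alone, Bcl2 was not called (limma adjusted p = 0.0541). Bcl2 is among the genes that the study itself picked out from these libraries. Its exons share 7.76% of their bases with D630008O14Rik on the other strand, and whether reads were counted by strand is not given in the sources used here.

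The effectors and BH3-only genes had no call in resting cells. Bax, a cytosolic effector that inserts into the mitochondrial membrane, had 113 and 121 normalized counts in WT cells and 82.8 and 80.1 in Stim1/2-deficient cells, which did not overlap (log2 difference -0.52, limma adjusted p = 0.275). Bak1, the effector that resides in that membrane, had 206 and 112 against 115 and 82.8, so that the groups overlapped. Pmaip1, whose product NOXA chiefly binds MCL-1, had 1652 and 1663 normalized counts in WT cells and 515 and 656 in Stim1/2-deficient cells, all lower. Its log2 difference of -1.51 (95% confidence interval -2.52 to -0.50) exceeded that of Bcl2 in size but missed the threshold with limma (adjusted p = 0.0887), whereas DESeq2 on the recovered reads (adjusted p = 0.00731) and limma on the 4 unstimulated libraries alone (adjusted p = 0.0316) called it. Bcl2l11, the gene of BIM, which can bind all the pro-survival proteins, split the Stim1/2-deficient group, with 2394 and 6082 normalized counts around the WT values of 2622 and 3489. Its log2 difference of 0.34 (limma adjusted p = 0.634) turned to -0.34 without Stim1/2-deficient replicate 2 and passed the threshold at 1.01 (limma adjusted p = 0.0337) without replicate 1. Bbc3, the gene of PUMA, had 61.5 and 45.8 against 25.2 and 53.4, and Bid, which links caspase-8 to the mitochondria, had 241 and 174 against 229.6 and 111. Both overlapped between the genotypes. The log2 difference of Bbc3 (-0.52) was 0.01 without Stim1/2-deficient replicate 1, and that of Bid (-0.36) was 0.16 without replicate 2. Bad, which binds BCL-2 and BCL-XL unless phosphorylated, was lowest of all with 57.2 and 32.5 against 27.3 and 18.7 (log2 difference -0.90, limma adjusted p = 0.312).

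In counts over the 10 members, 1 was called higher and 1 lower, where 1.38% of all tested genes were called higher and 3.35% lower. Libraries did not overlap for 2 members that were higher and 4 that were lower in Stim1/2-deficient cells, against 26.5% and 27.1% of all tested genes, so the share of members that stood apart, unlike the calls, was close to that of all genes. The median log2 difference was -0.52 over the members and -0.01 over all tested genes. With libraries rescaled to equal totals or equal upper quartiles the median of all genes moved to 0.11 and 0.16, and the calls over all genes split into 239 higher and 348 lower, or 287 and 332, instead of 213 and 517. Under these scalings, and with that shift included, Bcl2 had log2 fold changes of 1.21 and 1.25 and Bcl2l1 of -1.59 and -1.55, both called.

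Does the genotype difference hold once the cells are activated? After 16 h with anti-CD3/CD28, Bcl2 again was higher in Stim1/2-deficient cells, and it was the only member called with limma. It had 3273 and 3284 normalized counts in WT cells and 6237 and 8053 in Stim1/2-deficient cells, which did not overlap. This 2.16-fold difference (log2 1.11, standard error 0.18, limma adjusted p = 0.0432) was close to that in resting cells, but the call was near the threshold. It was lost with a pseudocount of 0.1 (limma adjusted p = 0.0518), without the filter on low genes (0.112), with equal totals (0.0544), with edgeR (0.0655), in the 4 stimulated libraries alone (0.0905), and without WT replicate 1 (0.248), WT replicate 2 (0.380) or Stim1/2-deficient replicate 2 (0.310). Its log2 fold change stayed within 0.93 to 1.30 under all alternatives run. Without Stim1/2-deficient replicate 1 it was 1.30. Of the 4 stimulated libraries, that replicate had the highest summed B cell markers without Ighm, CD8 T and NK markers, and neutrophil markers. Only 0.162% of tested genes were called higher and 0.110% lower in this comparison, 25 and 17 genes, against 1 and 0 of the 10 members.

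Bcl2l1, lower in resting cells, had 1077 and 861 normalized counts in stimulated WT cells and 814 and 724 in Stim1/2-deficient cells, a log2 difference of -0.33 (95% confidence interval -0.91 to 0.26, limma adjusted p = 0.641). The libraries did not overlap, though the lower WT library came within a short distance of the higher Stim1/2-deficient one. Mcl1 had 4206 and 4400.1 against 5461 and 6984.5, again without overlap and at a log2 difference much like that of resting cells (0.52, limma adjusted p = 0.204). Neither gene passed the threshold in this comparison.

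Bcl2l11 and Bbc3 gave the largest positive log2 differences of the 10 members in stimulated cells. Bcl2l11 had 581 and 736 normalized counts in WT cells and 1720.0 and 1753 in Stim1/2-deficient cells, so that here the replicates were close and the groups apart. The log2 difference of 1.41 (95% confidence interval 0.61 to 2.21) missed the threshold with limma (adjusted p = 0.121) and passed it with DESeq2 (adjusted p = 0.00419). Bbc3 had 14.0 and 34.2 against 58.8 and 107, without overlap but at low counts and with a wide interval (log2 difference 1.81, 95% confidence interval 0.53 to 3.08, limma adjusted p = 0.187). Bax was at nearly equal levels, 291 and 339 against 289.8 and 332 (log2 difference -0.02, 95% confidence interval -0.60 to 0.56). Pmaip1 overlapped, at 356 and 112 against 156 and 97.1, as did Bad at 38.2 and 66.8 against 51.6 and 56.6. Bak1 (359 and 302 against 283 and 190.0) and Bid (344 and 312 against 276 and 225) were lower in both Stim1/2-deficient libraries, with adjusted p-values in limma of 0.597 and 0.682. In all, 4 members were higher and 3 lower without overlap, beside 24.3% and 23.1% of all tested genes, and the median log2 difference was 0.04 over members and 0.02 over all tested genes.

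**Figure D3:**
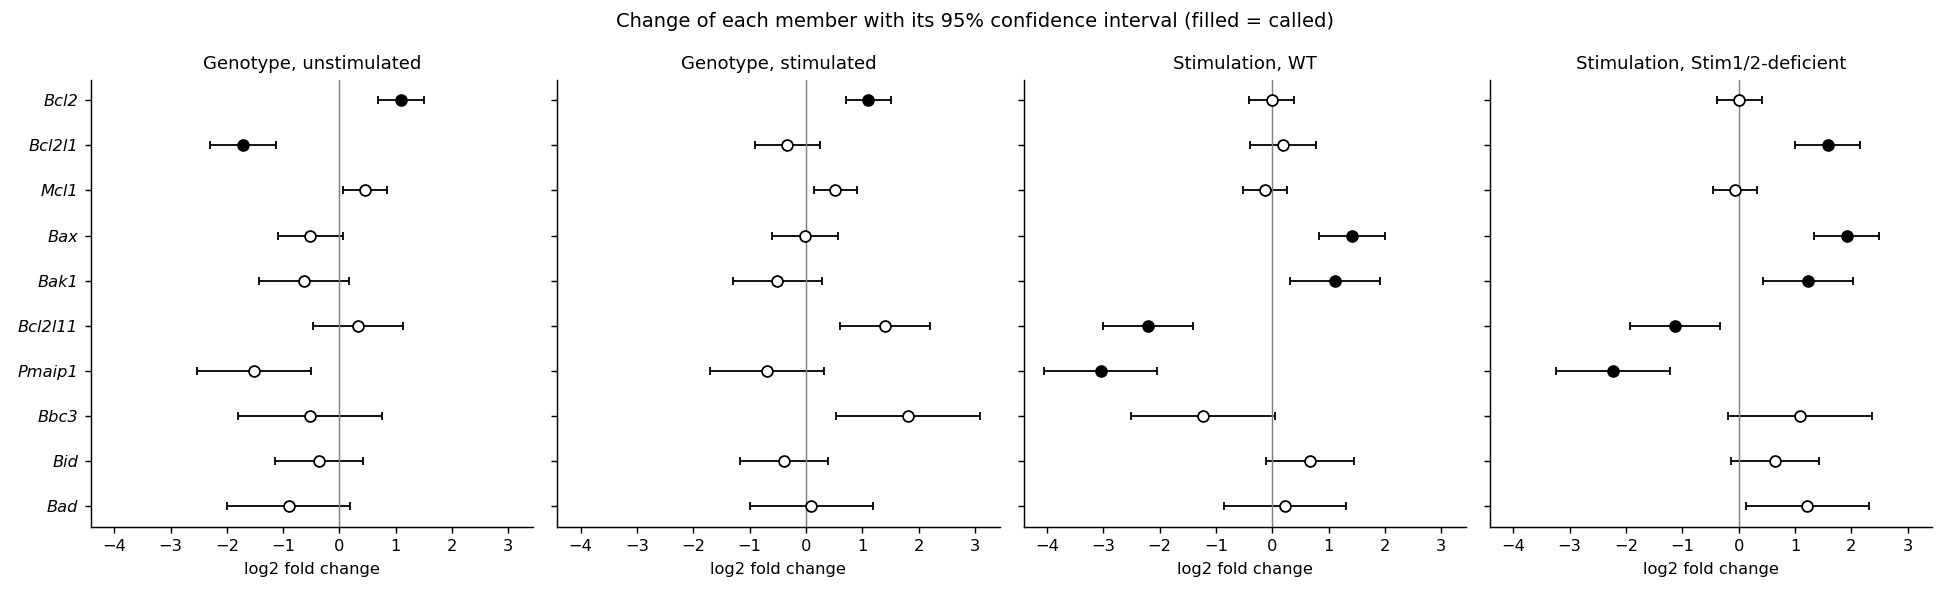
Log2 fold change of the 10 members (points) with 95% confidence intervals (bars) from limma in 4 comparisons, Stim1/2-deficient over WT in unstimulated and stimulated cells, and stimulated over unstimulated in WT and Stim1/2-deficient cells. Filled points passed an adjusted p of 0.05 and a 1.5-fold change, 2, 1, 4 and 5 members from left to right, with Bcl2 filled in both genotype panels and Pmaip1 furthest to the left in both stimulation panels.

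A further pair of comparisons asks what stimulation did within each genotype. They share their libraries with the genotype comparisons, so the values are given side by side and not as independent evidence. In WT cells, Bax and Bak1 were higher and Bcl2l11 and Pmaip1 lower after stimulation, whereas none of the 3 pro-survival genes passed the test. Bax rose from 113 and 121 to 291 and 339 normalized counts, on the log2 scale 1.41 (standard error 0.26) with an adjusted p of 0.00514 in limma, with no overlap. Leaving out stimulated WT replicate 2 ended that call (limma adjusted p = 0.0566). Bak1 rose from 206 and 112 to 359 and 302 (log2 fold change 1.11, limma adjusted p = 0.0485), a call lost with a pseudocount of 0.1, without the filter, with edgeR and without any one of the 4 WT libraries (adjusted p 0.0528 to 0.327), where the log2 fold change ran from 0.67 without unstimulated replicate 4 to 1.54 without unstimulated replicate 3. Bak1 shares 14.8% of its exon bases with Ggnbp1 on the other strand, Bid 17.7% with Bcl2l13 and Bad 25.8% with Gpr137, so that without strand the reads there cannot be told apart.

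The decreases were larger in the main fit, and their calls held under every alternative run. With no library left out, the alternatives gave up to 1.93 for Bax and at the least -1.69 for Bcl2l11. The order of size was thus not shown for every alternative. Bcl2l11 went from 2622 and 3489 normalized counts to 581 and 736 in WT cells, which fell by 2.21 on the log2 scale (standard error 0.36, 4.62-fold lower, limma adjusted p = 0.00307). Pmaip1 went from 1652 and 1663 to 356 and 112, an 8.27-fold decrease (log2 fold change -3.05, standard error 0.45, limma adjusted p = 0.00228). The stimulated Pmaip1 libraries differed among themselves, but both were far below the resting ones, and without stimulated replicate 2 the log2 fold change was -2.22 and without replicate 1 -3.88. Bbc3 went from 61.5 and 45.8 to 14.0 and 34.2 without overlap (log2 difference -1.23, limma adjusted p = 0.146). Bid, at 241 and 174 before and 344 and 312 after, did not overlap (log2 difference 0.68, limma adjusted p = 0.189), and Bad overlapped.

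In Stim1/2-deficient cells, Bcl2l1, Bax and Bak1 were higher and Pmaip1 and Bcl2l11 lower after stimulation. Bcl2l1 went from 197 and 333 normalized counts to 814 and 724, near the WT values, a 2.99-fold rise (log2 1.58, standard error 0.26, limma adjusted p = 0.00282). It was called under all 14 alternatives, at log2 fold changes of 1.20 to 1.97, with 1.20 in the absence of replicate 1 of the resting cells. Bax rose from 82.8 and 80.1 to 289.8 and 332 (log2 fold change 1.92, standard error 0.26, limma adjusted p = 0.00118), called under all 14 alternatives too. Bak1 rose from 115 and 82.8 to 283 and 190.0 (log2 fold change 1.24, limma adjusted p = 0.0304), which was not called without the filter (0.0536), in the 4 libraries alone (0.0730), without unstimulated replicate 2 (0.130) or without stimulated replicate 1 (0.151).

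Among the BH3-only genes of Stim1/2-deficient cells, Pmaip1 fell from 515 and 656 to 156 and 97.1 normalized counts, with no overlap (log2 fold change -2.23, standard error 0.45, limma adjusted p = 0.00693). Bcl2l11 fell from 2394 and 6082 to 1720.0 and 1753, a log2 change of -1.14 (standard error 0.36, limma adjusted p = 0.0423) that rested on 1 library. Without unstimulated replicate 2 it was -0.46 (limma adjusted p = 0.177), without unstimulated replicate 1 it was -1.81, and the call was also lost without stimulated replicate 1 (0.119) or 2 (0.117), without the filter (0.0802), with equal totals (0.115) and in the 4 libraries alone (0.109). Bbc3, not called in either genotype, had 58.8 and 107 in stimulated Stim1/2-deficient libraries against 25.2 and 53.4 at rest, without overlap (log2 difference 1.09, limma adjusted p = 0.187). Bad had 51.6 and 56.6 against 27.3 and 18.7 (log2 difference 1.22, limma adjusted p = 0.0931), and Bid overlapped.

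Bcl2 and Mcl1 moved little with stimulation in either genotype. For Bcl2 the log2 difference was -0.01 in WT cells (95% confidence interval -0.41 to 0.39) and 0.01 in Stim1/2-deficient cells (-0.39 to 0.41), and its groups overlapped in both. For Mcl1 it was -0.13 in WT cells (-0.52 to 0.25) and -0.06 in Stim1/2-deficient cells (-0.45 to 0.32). These intervals depend on how libraries are scaled. The normalized counts of unstimulated libraries add up to more than those of stimulated ones, and with equal totals the median of all genes moved from 0.01 to 0.52 in WT cells and from -0.03 to 0.36 in Stim1/2-deficient cells. Bcl2 then had log2 differences of 0.51 and 0.40 and Mcl1 of 0.39 and 0.33, about the shift of all genes, so no direction of change upon stimulation is given for either gene.

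Counted over the members, 2 were called higher and 2 lower in WT cells, where 10.2% and 13.1% of all tested genes were, and 3 and 2 in Stim1/2-deficient cells, where 13.0% and 12.0% were. Without overlap, 4 members were higher and 4 lower in WT cells beside 35.0% and 36.0% of all tested genes, and 5 and 2 in Stim1/2-deficient cells beside 30.8% and 30.6%. The median log2 difference of the members was 0.09 in WT and 0.87 in Stim1/2-deficient cells, with 0.01 and -0.03 over all tested genes. Scaling to equal totals changed the split of calls over all genes from 1580 higher and 2013 lower to 4267 and 962 in WT cells, and from 1997 and 1855 to 3793 and 1068 in Stim1/2-deficient cells. It added Bcl2l1 and Bid to the members called higher in WT cells, and in Stim1/2-deficient cells it added Bad and lost Bcl2l11.

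Whether stimulation acted differently in the 2 genotypes was tested as an interaction. With limma, 0 of the 10 members passed, as did 0% of all tested genes. At an unadjusted p under 0.05 there were 2 members, Bcl2l1 and Bbc3, beside 1257 of all 15419 tested genes. edgeR and DESeq2 called 0 members as well, although DESeq2 called 37 genes of the whole table in the positive and 13 in the negative direction. The interaction of Bcl2l1 was 1.39 on the log2 scale (95% confidence interval 0.56 to 2.21, limma adjusted p = 0.556), and that of Bbc3 was 2.33 (0.52 to 4.13, limma adjusted p = 0.569). For Bcl2 it was 0.02 (-0.55 to 0.59). Without unstimulated Stim1/2-deficient replicate 2, Bcl2l1 (1.76, limma adjusted p = 0.0256) and Bcl2l11 (1.74, limma adjusted p = 0.0290) were called among 179 genes with a positive and 17 with a negative interaction, and leaving out any other library gave 0 members.

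Ratios of 2 members within a library do not depend on how libraries were scaled, and they are given as values without a test (plot of ratios). Bcl2 over Bcl2l1 was 3.93 and 3.91 in unstimulated WT cells and 38.4 and 19.7 in Stim1/2-deficient cells, then 3.04 and 3.81 and 7.66 and 11.1 after stimulation. Every Stim1/2-deficient library thus exceeded every WT library, which follows from the values of Bcl2 and Bcl2l1 given above and adds no separate evidence. The ratio of Bcl2 to Mcl1 was 0.692 to 0.778 in the 4 WT libraries and 1.03 to 1.16 in the 4 Stim1/2-deficient libraries, also without overlap. Mcl1 over Pmaip1, the pro-survival gene and the BH3-only gene whose product chiefly binds it, was 2.92 and 2.77 in resting WT cells and 12.7 and 9.70 in Stim1/2-deficient cells, and reached 11.8 and 39.4 in stimulated WT and 35.1 and 71.9 in stimulated Stim1/2-deficient cells, where the genotypes overlapped. Bcl2 over Bcl2l11 separated by stimulation and not by genotype, with 1.28 and 0.933 in resting WT, 3.16 and 1.07 in resting Stim1/2-deficient, 5.63 and 4.46 in stimulated WT and 3.63 and 4.59 in stimulated Stim1/2-deficient cells. Mcl1 over Bcl2l11, which is not plotted, was 1.84 and 1.32 in resting WT and 2.73 and 1.05 in resting Stim1/2-deficient cells. After stimulation it was lower in Stim1/2-deficient cells without overlap, at 3.17 and 3.99 against 7.23 and 5.98 in WT cells. Bcl2 over Bax went from 29.5 and 26.9 to 11.3 and 9.70 upon stimulation in WT cells and from 91.4 and 81.6 to 21.5 and 24.3 in Stim1/2-deficient cells.

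**Figure D4:**
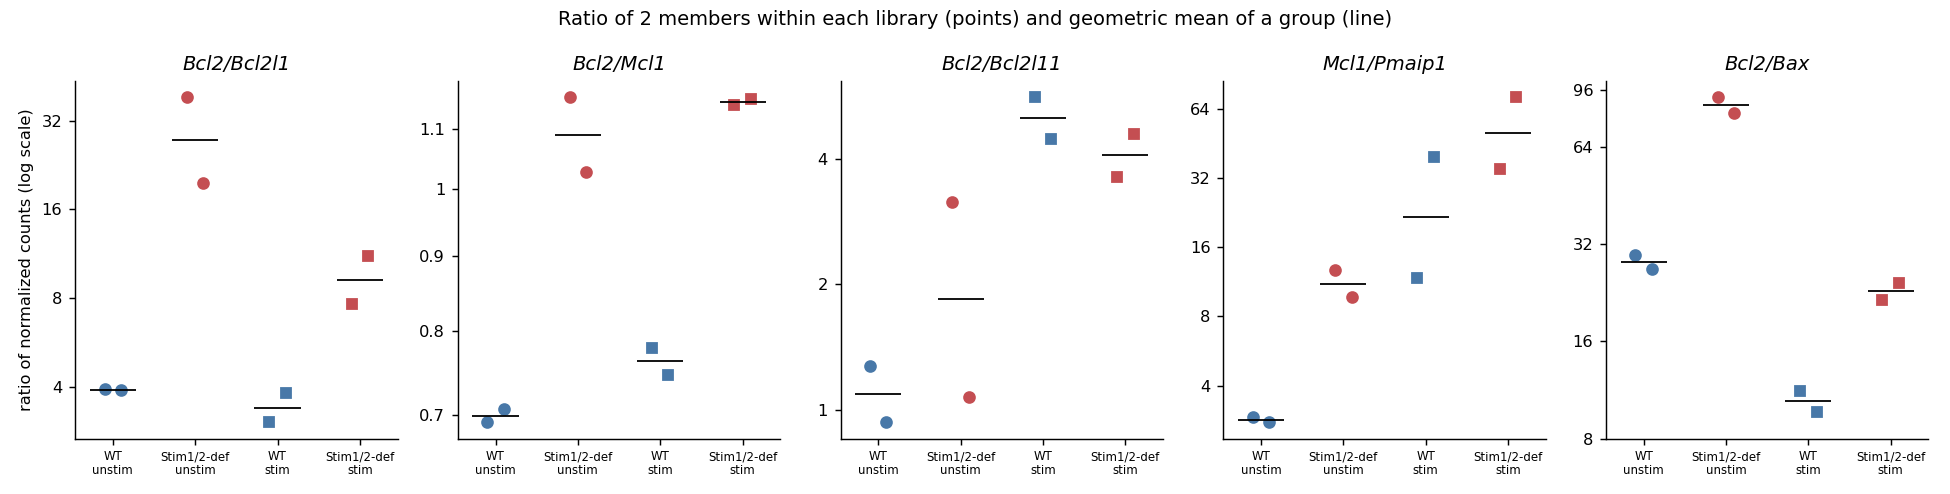
Ratio of the normalized counts of 2 members in each library (points) and geometric mean of each group (line), on log axes with a scale of their own per panel, for WT (blue) and Stim1/2-deficient (red) cells, unstimulated (circles) or stimulated (squares). The ratios of Bcl2 to Bcl2l1 and to Mcl1 separate all 4 Stim1/2-deficient from all 4 WT libraries, up to 38.4 against at most 3.93 and 1.03 to 1.16 against at most 0.778.

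The genes whose log2 values followed Bcl2 most closely over the 8 libraries, among 9146 genes with a mean of at least 100, were Cd2ap (Pearson r = 0.983), Dock4 (0.979), Hdhd5 (0.967), Sgk3 (0.963) and Zfp1 (0.963). Cd2ap, the gene of an adaptor of the actin cytoskeleton, lay between 2051 and 2214 normalized counts in WT libraries and between 2698 and 2914 in Stim1/2-deficient ones. Sgk3, a kinase downstream of phosphoinositide signalling, lay between 222 and 267 and between 442 and 641. For Bcl2l11 they were Uvrag (0.990), Gm37248 (0.989), Tdrp (0.987), Clcf1 (0.982) and Zfp148 (0.981), of which Uvrag, a regulator of autophagy, had 1341 to 1937 normalized counts in resting and 822 to 1179 in stimulated libraries. The 8 libraries share 4 groups, and these correlations describe a pattern chosen as the closest of many.

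Genes around the members were read from lists. Of the other BCL-2 family, 10 of 15 genes were tested, and with limma 0 were called between the genotypes. At an unadjusted p under 0.05 in limma there were 2 in resting and 2 in stimulated cells. Of all 15419 tested genes, 3395 and 2118 were under that p in these comparisons. From this list edgeR called 0 between the genotypes, and DESeq2 called Bcl2a1b in resting cells. Bnip3l, a receptor for removal of mitochondria, fell upon stimulation from 2550.0 and 2657 to 630 and 568 normalized counts in WT cells (log2 fold change -2.12, limma adjusted p = 0.000875) and from 1832 and 3117 to 793 and 1019 in Stim1/2-deficient cells (-1.41, limma adjusted p = 0.00407), both under every alternative. Bcl2l2, the gene of the pro-survival BCL-W, rose with stimulation in both genotypes at low counts (1.64 and 1.76, limma adjusted p = 0.0478 and 0.0351). In WT cells the call was lost without any one library, with a pseudocount of 0.1, without the filter, with edgeR and with DESeq2. In Stim1/2-deficient cells it was lost without unstimulated replicate 2 or either stimulated library, without the filter and in the 4 libraries alone. Bmf, a BH3-only gene tied to the cytoskeleton, fell from 29.4 and 30.7 to 0 and 6.75 in Stim1/2-deficient cells (limma adjusted p = 0.0158). That call was lost without unstimulated replicate 2 and in the 4 libraries alone (limma adjusted p = 0.0907). In WT cells Bmf went from 74.5 and 57.6 to 20.3 and 17.5, also without overlap but not called. Bcl2a1b and Bcl2a1d, nearly identical copies of the pro-survival A1 gene that can share reads, had 22.0 to 41.4 and 17.8 to 28.1 in resting Stim1/2-deficient cells and 108 to 120 and 61.5 to 82.7 in WT cells, with limma adjusted p-values of 0.0531 and 0.125.

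Between resting genotypes, limma called 1.38% of all tested genes higher and 3.35% lower in Stim1/2-deficient cells. Of 5 caspase inhibitors, 1 was called lower, Birc5 (survivin, which also serves in mitosis). It had 335 and 235 normalized counts in WT against 59.8 and 28.1 in Stim1/2-deficient cells (-2.74, limma adjusted p = 0.0176). Of 11 tested p53 genes, Trp53inp1 and Ccng1 were called lower (-0.99 and -0.90, limma adjusted p = 0.0156 and 0.0480). These 3 calls were lost without WT replicate 3 or 4, and that of Ccng1 also without Stim1/2-deficient replicate 2 and under 6 of 9 other alternatives, edgeR among them. That of Trp53inp1 was also lost in the 4 libraries alone. Of the 9 genes of the death receptor pathway, 11 upstream regulators and 8 mitochondrial partners, 0 were called with limma between resting genotypes, with 0, 4 and 1 at an unadjusted p under 0.05. edgeR called 0 of them, and DESeq2 called 3 upstream regulators, E2f1, Il2ra and Il2rb. Of all 15419 tested genes, 3395 had an unadjusted p under 0.05 in limma between resting genotypes. After stimulation, limma and edgeR called 0 genes of these lists between the genotypes, where limma called 0.162% of all tested genes higher and 0.110% lower. At an unadjusted p under 0.05 in limma there were 0 to 3 a list, beside 2118 of all 15419 tested genes. The calls of DESeq2 included Birc5, Fas and Il7r.

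More genes of these lists were called between stimulated and unstimulated cells. In WT cells, 1 of 11 upstream regulators of the family was called higher and 5 lower, beside 10.2% and 13.1% of all tested genes. Il2ra, the high-affinity chain of the IL-2 receptor, went from 11360 and 10408 normalized counts to 42365 and 50119 (log2 fold change 2.08, limma adjusted p = 0.000251). Foxo1, a transcription factor known to activate Bcl2l11, went from 10902 and 11083 to 3398 and 3493 (-1.67, limma adjusted p = 0.00364), and Il7r, whose signal is known to raise Bcl2, fell by 1.96 on the log2 scale. Of p53 genes, Aen and Zmat3 were called higher and 3 lower, among them Sesn1 (-2.0) and Trp53inp1 (-1.89), and of the caspase inhibitors Birc2 and Birc3 were called lower (-1.66 and -1.30). Among these, Birc3 was lost without any one WT library and Zmat3 without unstimulated replicate 4 or stimulated replicate 2, as were Casp6 and Vdac2, called higher (1.32 and 0.71), without several.

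In Stim1/2-deficient cells the upstream regulators had 2 calls higher and 2 lower, among them Il2ra (2.62, limma adjusted p = 0.000134), Il7r (-2.69, limma adjusted p = 0.000408) and Foxo1 (-1.33, limma adjusted p = 0.00875), of which Foxo1 was not called in the 4 libraries alone (limma adjusted p = 0.0534). Trp53, the gene of p53 itself, rose from 495 and 393 to 1019 and 1364 normalized counts (log2 fold change 1.42, limma adjusted p = 0.00254). In WT cells Trp53 went from 617 and 542 to 839 and 1027, also without overlap but not called. In Stim1/2-deficient cells 5 of 11 tested p53 genes were called higher and 1 lower, beside 13.0% and 12.0% of all tested genes. Casp6 and Aifm1, the gene of apoptosis-inducing factor, were called higher (1.55 and 1.09), Fadd, an adaptor of death receptors, was the only call of its list (1.06), and Vdac2, a channel of the outer membrane known to bind BAK, rose as well (0.87). Aifm1, Fadd and Vdac2 lost their call without stimulated replicate 1 and in the 4 libraries alone. Fadd lost it also without stimulated replicate 2 or unstimulated replicate 2. Casp6, Trp53, Il2ra and Il7r were called under every alternative run. The lists have 5 to 15 genes each, and no test was made of a list as a whole.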

How the data were processed

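The series holds 8 RNA libraries of sorted Treg cells, in 4 groups of 2 by genotype and stimulation as labelled. The methods and the labels differ on how the files were made. The methods name TruSeq RNA libraries, Bowtie alignment to NCBIM37, removal of duplicates with Picard, counting with HTSeq and DESeq2, whereas the submitters' processing notes name bcl2fastq 1.8.4, STAR 2.7, DESeq2 and mm10, and the labels a stranded kit. The deposited signal values count reads on each gene after the authors scaled every library by 1 size factor. Division gave whole reads for 100% of values (within 0.1 of a whole number), at a depth of 11851853 to 16306540 reads, where 3 reads equal 2.28 to 4.43 normalized counts. With 2 libraries a group, p-values rest on the spread between libraries within a group, pooled over the 4 groups and moderated over genes. Whether WT and Stim1/2-deficient libraries came from the same pools of mice is not given in the sources used here, and the main model has no such pairing.

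Genes whose mean reached 10 entered 1 model of the 4 groups on log2 values (pseudocount 1), with moderated and trended variances from limma 3.58.1 under R 4.3.3. Fold changes are on the log2(value + 1) scale, which understates changes of low genes. Tests were 2-sided, adjusted by Benjamini and Hochberg over all tested genes, with calls beyond 1.5-fold at adjusted p-values under 0.05. Fits were tested on simulated data. DESeq2 1.42.0, the study's own tool, and edgeR 4.0.16 (quasi-likelihood) on recovered reads were alternatives because the deposited values are normalized. The others were pseudocounts of 0.1 and 5, no filter, a mean of at least 100, equal totals or upper quartiles, fits of only 4 libraries, the replicate number as a block, and leaving out each library.

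All members are named. Of other lists (other family genes, apoptosome and caspases, caspase inhibitors, death receptor pathway, p53 genes, upstream regulators, mitochondrial partners), called genes are named, at most 4 a list and comparison, and for Bcl2 and Bcl2l11 the 5 genes of highest Pearson r. The list genes not called but described (Bcl2a1b, Bcl2a1d) and those called only by DESeq2 were chosen after their values were seen. So were the promoter window of Bcl2l1 and the genes whose windows are printed. Members and lists were chosen with earlier results of these data known. Of 52459 symbols, 28801 matched GENCODE M1, the source of exon lengths and overlaps, and promoter windows are from RefSeq on GRCm38.p6. Results for some list genes are not reported here. Reads of separate exons were not analysed here.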

Additional observations from a re-analysis of the deposited data

How the results depend on the processing

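Of the 690 values of members under an alternative, 611 kept their direction and their side of the threshold, 31 kept the direction only and lost the call, 11 gained one and 37 changed direction, all of the latter for values not called. Between resting genotypes 2 members were called, and 0 to 3 with 1 library left out. Between stimulated genotypes it was 1 member, 0 with a pseudocount of 0.1, without a filter, with equal totals, with edgeR or in the 4 libraries alone, 2 with DESeq2, and 0 to 1 with a library left out. Stimulation gave 4 members in WT cells, 2 to 3 with a library left out, and 5 in Stim1/2-deficient cells, 3 without a filter or in the 4 libraries alone and 3 to 6 with a library left out. The interaction gave 0, and 0 to 2 with a library left out.

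Changes of direction came chiefly with a library left out. Between resting genotypes the log2 difference then ran from -0.34 to 1.01 for Bcl2l11, from -1.05 to 0.00899 for Bbc3 and from -0.88 to 0.16 for Bid. Between stimulated genotypes it ran from -0.13 to 0.0929 for Bax, from -1.53 to 0.14 for Pmaip1 and from -0.30 to 0.49 for Bad. For stimulation in WT cells it ran from -0.0291 to 0.0108 for Bcl2 and from -0.17 to 0.62 for Bad, and in Stim1/2-deficient cells from -0.17 to 0.20 for Bcl2 and from -0.24 to 0.11 for Mcl1. For the interaction it ran from -0.16 to 0.20 for Bcl2, from -0.11 to 0.25 for Mcl1, from -0.31 to 0.56 for Bak1, from -0.0159 to 1.65 for Pmaip1 and from -0.56 to 0.49 for Bid. With equal totals, stimulation in WT cells gave 0.51 for Bcl2 and 0.39 for Mcl1, stimulation in Stim1/2-deficient cells 0.33 for Mcl1, and the interaction -0.11 for Bcl2, -0.0607 for Mcl1 and -0.000948 for Bak1. With equal upper quartiles, Bcl2 had 0.0582 for stimulation in WT cells and -0.0755 in Stim1/2-deficient cells, and the interactions of Bcl2, Mcl1 and Bak1 were -0.13, -0.0842 and -0.0232. DESeq2 gave -0.00246 for Bcl2 upon stimulation in Stim1/2-deficient cells. The cause was not tested.

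Replicate numbers were not taken as pairs, since nothing in the labels says what a number marks, unstimulated WT libraries carry other numbers, and the deviations of same-numbered libraries correlated at 0.167 (stimulated genotypes) and 0.257 (Stim1/2-deficient cells). A replicate block left 1 member between stimulated genotypes, Bcl2 (log2 1.11, limma adjusted p = 0.0471), and 5 upon stimulation of Stim1/2-deficient cells, with 45 genes higher and 43 lower called in the first case and 2412 and 2442 in the second.

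Over all genes, the calls were 213 higher and 517 lower between resting genotypes, 521 and 817 with DESeq2 and 83 and 255 in the 4 libraries alone, and 25 and 17 between stimulated genotypes, 251 and 299 with DESeq2 and 1 and 0 with edgeR. Depth limits Bbc3 and Bad most, with at most 107 normalized counts in any library, and neither was tested with a mean of at least 100. Left-out fits take the lone library of a group to vary like the others.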
